A study of Homo sapiens with 14 samples.

Results

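LTR5B integrants are the genomic copies of LTR5B, a long terminal repeat (LTR) of the endogenous retrovirus HERVK, whose internal coding part is annotated as HERVK-int. Of the 4570939 transposable element (TE) integrants counted in every library, 417 named LTR5B and neither LTR5_Hs nor LTR5A, the related LTRs of the same retrovirus. Among these, 380 named LTR5B alone, 35 also named HERVK-int and 2 also named LTR46. For comparison, 614 integrants named LTR5_Hs and 257 named LTR5A without LTR5_Hs.

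An LTR flanks each end of a provirus and holds its promoter and polyadenylation signal. Recombination between both LTRs of a provirus leaves a solitary LTR behind, so most copies of old families lack internal sequence. LTR sequences carry binding sites of transcription factors and can act as promoters or enhancers of cellular genes, while KRAB zinc finger proteins (KZFPs), many of them encoded in clusters on chromosome 19, bind TEs and recruit the machinery of heterochromatin. CRISPR interference (CRISPRi) borrows the same route: a catalytically dead Cas9 fused to a KRAB domain (dCAS9-KRAB) is led by a single guide RNA (sgRNA) to matching DNA next to an NGG motif.

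The integrants were followed through 12 bulk RNA-seq libraries of the human embryonic stem cell (hESC) line H9, in 5 groups. These were hESC (n = 2), endoderm with dCAS9-KRAB and no sgRNA (DE_ctl, called control endoderm here, n = 3), endoderm with dCAS9-KRAB and an sgRNA designed on the LTR5B consensus (DE_CRISPRi, sgRNA endoderm, n = 3), and foregut cells without and with that sgRNA (FG_ctl and FG_CRISPRi, control and sgRNA foregut, n = 2 each). Endoderm was made over 3 days with 100 ng/ml Activin A and CHIR-99021 at 5 µM and then 0.5 µM. The study made foregut by a commercial pancreatic protocol, with 3 days of endodermal and 3 days of foregut differentiation. It does not say whether that endodermal step used the same recipe. Stage and protocol thus cannot be told apart between control endoderm and control foregut. The dCAS9-KRAB vector was delivered by lentivirus and selected with puromycin. The labels of the hESC group name no dCAS9-KRAB, so the change from hESC to endoderm and the vector cannot be told apart. The foregut groups were taken from the sample titles, because other fields of their labels named hESC for the control libraries and endoderm without sgRNA for the sgRNA libraries. Marker sums went with the titles: the summed level of 4 foregut genes (FOXA1, HNF4A, ONECUT1 and TTR) was 1706 to 2275 reads per 1000000 gene reads (RPM) in control foregut, 1835 to 1869 RPM in sgRNA foregut and 7.38 to 29.3 RPM over the 6 endoderm libraries. TTR alone held 1452 to 2050 RPM in foregut and had no read in endoderm. FOXA1 was also higher in every foregut library, while HNF4A and ONECUT1 overlapped between sgRNA foregut and endoderm. Within foregut TTR overlapped, but the other 3 genes were lower in both sgRNA libraries than in both controls. FOXA1 was at 128 and 162 against 218 and 193 RPM, and HNF4A at 18.4 and 27.4 against 32.1 and 31.0 RPM. GATA4, an endoderm marker, was also lower there, at 71.1 and 135 against 211 and 206 RPM. The part of these differences in the LTR5B values was not tested. The 6 endoderm markers (CER1, CXCR4, FOXA2, GATA4, GATA6 and SOX17) summed to 19.9 to 30.9 RPM in hESC and to 4811 to 5982 RPM in endoderm. CER1 alone held at least 3584 RPM of the endoderm sums. FOXA2 was higher in foregut than in endoderm (391 to 474 against 80.4 to 160 RPM). The hESC markers (DNMT3B, L1TD1, NANOG, POU5F1 and SOX2) summed to 1784 to 2476 RPM in hESC, 712 to 1185 RPM in endoderm and 171 to 264 RPM in foregut. POU5F1 went the other way, at 286 and 620 RPM in hESC and 637 to 842 RPM in control endoderm. SOX2 held most of each foregut sum, at 136 to 246 RPM there, 11.0 to 29.6 RPM in endoderm, and 150 and 176 RPM in hESC. In foregut POU5F1 was at 0.769 to 4.55 RPM and NANOG at 0 to 0.0628 RPM. In bulk RNA, fewer cells of a type and less RNA per cell cannot be told apart. The labels do not say whether replicates came from separate cultures. The study states that its RNA-seq replicates were biologically independent, with a minimum of 2 per experiment. The p-values measure the spread between these samples.

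Each library held 11583063 to 37152434 reads in genes, and TE reads came to 1.21 to 2.01% of that number, so a single read was worth 0.0269 to 0.0863 RPM. A count of 0 allowed up to 3 reads, or 0.0807 to 0.259 RPM, a limit that covers counting error only. The 4 foregut libraries stood apart from the rest. They had reads in 9126 to 27718 integrants of all families, of which 493 to 1376 had a single read, against 30360 to 74440 and 14116 to 37990 in the other 8 libraries. The median number of reads in an integrant with reads was 12 to 31 in foregut and 1 or 2 elsewhere. LTR5B followed this pattern: 2 to 11 integrants had reads in a foregut library, with the fewest in replicate 2 of sgRNA foregut, and 10 to 19 in each of the others. Its part in the foregut values was not tested.

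LTR5B integrants were unevenly placed. Chromosome 19 held 77 of the 417, or 1.30 per Mb against 0.110 per Mb on the other placed chromosomes, followed by chromosome 1 with 44 and chromosome 14 with 23. Reference sequence (GRCh37) was at hand for 410 of them; the other 7 lay on alternative haplotypes of chromosome 6 (5) or in a masked stretch of chromosome Y (2). A protein-coding gene body overlapped 162 of the 410 (39.5%), 37 of 77 on chromosome 19 (48.1%) and 37.5% elsewhere. On chromosome 19, 55 of 77 (71.4%) lay within 50 kb of the start of a gene named ZNF, most of which encode zinc finger proteins, against 12 of 333 (3.6%) elsewhere. The stretch chr19:52371961-54001852 alone held 36 integrants, 35 of them near such a gene. The median integrant was 985 bp long (35 to 9522 bp), and a median of 79.9% of its 50-base words occurred nowhere else in the genome (0 to 100%), so a part of each typical copy could not be counted from uniquely mapped reads.

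The sgRNA could meet LTR5B copies to very different degrees. All 20 letters of the guide next to NGG, called a perfect site below, were found in 105 of the 410 integrants (25.6%). A further 56 had a best site with 1 mismatch, 23 with 2 and 226 with 3 or more. On chromosome 19 these numbers were 20, 17, 6 and 34. A perfect site was found in 129 of 584 LTR5_Hs integrants (22.1%), where 326 had 1 mismatch, and in 1 of 252 LTR5A integrants. The letters AGATAAG, which contain the core recognised by GATA factors, occurred on either strand in 207 of 410 LTR5B integrants (50.5%) and 192 of 584 LTR5_Hs integrants (32.9%). Among copies of 900 to 1100 bp the shares were 58.8% for LTR5B, 30.7% for LTR5_Hs, 5.76% for LTR5A and 15% over 50360 other TE integrants. These letters lie inside the guide, so every integrant with a perfect site held them by construction.

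Where a copy had a mismatch, the substitution is given with the letter of the guide, its position counted from 1 at the 5′ end of the guide, and the letter of the copy. Among integrants with a single mismatch the commonest substitutions were A5G, in 9 copies, and A12G, in 7. The copy inside ZNF846 held all 20 letters of the guide but not next to NGG, and the best match in the copy inside ZNF816-ZNF321P had 2 mismatches and no NGG, so neither counted as a site.

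Few LTR5B integrants were read at all. Any read was seen in 53 of 417 integrants over the 12 libraries, in 13 of 77 on chromosome 19 (16.9%) and in 40 of 340 elsewhere (11.8%). The share with reads was 18.1% (19 of 105) with a perfect site, 14.3% (8 of 56) with 1 mismatch, 13.0% (3 of 23) with 2 and 10.2% (23 of 226) with more. Integrants with reads lay in a protein-coding gene body in 29 of 53 cases (54.7%), those without reads in 37.3%. To keep reads of gene exons apart, the 30 integrants that overlapped an exon of a counted gene were left out of all sums, 5 of them with reads. The other 387 held 1463 reads, of which the 4 integrants with most reads took 71.7% and the 15 with at least 10 reads 96.1%; 33 more had 1 to 4 reads and 339 had none. Only 18 integrants reached 3 reads in a library, the minimum for a test. Reads from the LTR itself and read-through of a host gene cannot be told apart in these counts.

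In control endoderm the summed LTR5B level was above that of both hESC libraries. It was 2.55 and 1.42 RPM in hESC (60 and 32 reads), and 4.83, 5.43 and 5.01 RPM in control endoderm (95, 117 and 82 reads). The groups did not overlap, and the fit gave a log2 fold change of 1.41 ± 0.38 (SE; 95% interval 0.67 to 2.15; adjusted p = 0.00178, edgeR's quasi-likelihood test with Benjamini-Hochberg adjustment). Of the 1206 sets of TE names tested, 17.5% passed in either direction and 9.95% were higher in endoderm. Related sets rose too: HERVK-int joined to LTR5A by 3.33 ± 0.37 (adjusted p = 2.22e-17), HERVK-int alone by 3.63 ± 0.98 (0.00213) and LTR5A alone by 1.73 ± 0.52 (0.0074, edgeR). LTR5_Hs alone (0.51 ± 0.34, adjusted p = 0.312) and joined to HERVK-int (−0.84 ± 0.33, 0.0601, edgeR) did not pass. The subsets of LTR5B were fitted apart, and differences between them were not tested here. Integrants with HERVK-int rose from 0.562 ± 0.106 RPM (SD, n = 2) to 3.01 ± 0.232 RPM (n = 3), a log2 fold change of 2.47 ± 0.45 (adjusted p = 6.64e-07, edgeR). Of these levels the chromosome 22 provirus, described below, held 0.562 and 2.82 RPM. Integrants named LTR5B alone were at 1.42 ± 0.693 and 2.08 ± 0.245 RPM, with a log2 fold change of 0.60 ± 0.40 that did not pass (adjusted p = 0.325, edgeR). Copies on chromosome 19 were at 0.476 ± 0.108 and 0.643 ± 0.0731 RPM (log2 fold change 0.49 ± 0.58, adjusted p = 0.618, edgeR), while those on other chromosomes rose from 1.51 ± 0.691 to 4.45 ± 0.252 RPM (1.61 ± 0.39, adjusted p = 0.000414). The summed call rested on the chromosome 22 provirus: without its records the log2 fold change was 0.72 (adjusted p = 0.218, edgeR). It was also lost without replicate 2 of hESC (0.99, adjusted p = 0.109).

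With the sgRNA the summed LTR5B level in endoderm was 1.2, 3.26 and 2.59 RPM (20, 64 and 30 reads), below each control library. The log2 fold change was −1.11 ± 0.37 (95% interval −1.84 to −0.38; adjusted p = 0.414, edgeR), so the difference did not pass over all 1180 sets tested, of which 0.169% passed. The integrants with HERVK-int fell, from 2.75, 3.11 and 3.18 RPM to 0.180, 1.17 and 0.518 RPM (log2 fold change −2.22 ± 0.46, adjusted p = 0.0260, edgeR). The chromosome 22 provirus held 48, 64 and 50 of their 54, 67 and 52 reads in the controls and 1, 23 and 4 of 3, 23 and 6 with the sgRNA. Integrants named LTR5B alone overlapped between groups, at 2.08, 2.32 and 1.83 RPM against 1.02, 2.09 and 2.07 RPM (−0.26 ± 0.39, adjusted p = 0.893, edgeR). Of the related sets, HERVK-int joined to LTR5_Hs fell and passed (−1.59 ± 0.36, adjusted p = 0.0453, edgeR). LTR5_Hs alone did not pass (−0.23 ± 0.31, adjusted p = 0.893, edgeR). The mesoderm list (FOXF1, HAND1, MEOX1 and TBX6) summed to 19.7 to 41.3 RPM in control endoderm and to 61.7 to 87.3 RPM in sgRNA endoderm, with MEOX1 at 0 in all 6 libraries. The part of this difference in the LTR5B values was not tested.

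Control foregut had the highest LTR5B sums, 12.4 and 9.04 RPM (405 and 336 reads). Against control endoderm the log2 fold change was 1.10 ± 0.34 (95% interval 0.42 to 1.77; adjusted p = 0.0365, edgeR), where 26.2% of 1212 sets passed and 19.3% were higher in foregut. Here the copies named LTR5B alone rose, from 2.08 ± 0.245 RPM (n = 3) to 6.55 ± 0.578 RPM (n = 2; log2 fold change 1.67 ± 0.37, adjusted p = 0.00645, edgeR). Those with HERVK-int went from 3.01 ± 0.232 to 4.18 ± 1.80 RPM, which did not pass (0.50 ± 0.42, adjusted p = 0.400, edgeR). The summed call was lost without any single control endoderm library (adjusted p = 0.0974, 0.110 and 0.164 without replicates 1, 2 and 3, edgeR) and without replicate 1 of control foregut (log2 fold change 0.74, adjusted p = 0.0936, edgeR). Both this comparison and the preceding ones used the control endoderm libraries.

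In sgRNA foregut the sums were 5.40 and 2.40 RPM (172 and 50 reads), below both control foregut libraries. The log2 fold change was −1.37 ± 0.68 (95% interval −2.70 to −0.04; adjusted p = 0.998, edgeR), and 0.173% of 1155 sets passed. It was −0.81 without replicate 2 of sgRNA foregut, the library with reads in the fewest integrants, and −2.31 without replicate 1. The effect of the sgRNA in foregut minus that in endoderm was −0.27 ± 0.73 on the log2 scale (adjusted p = 1.0, edgeR). LTR5_Hs, which also holds guide sites, stood at 16.5 to 18.5 RPM in control and 9.84 to 13.6 RPM in sgRNA endoderm, and at 9.04 and 8.16 RPM in control and 4.43 and 10.9 RPM in sgRNA foregut, which overlapped. LTR5A, which almost always lacks a guide site, was at 5.35 and 5.14 RPM in hESC. It was at 36.9 to 60.1 RPM in control endoderm and 85.0 to 107 RPM in sgRNA endoderm.

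Sorted by guide site, the copies with a perfect site were lower in every sgRNA library than in any control library of the same tissue. In endoderm their sum was 2.95, 3.62 and 3.79 RPM in the controls and 0.300, 1.78 and 1.21 RPM with the sgRNA. The log2 fold change was −1.64 ± 0.44 (adjusted p = 0.129, edgeR). Copies with 3 or more mismatches were at 1.42, 1.81 and 1.22 RPM and at 0.840, 1.48 and 1.21 RPM, which overlapped (−0.32 ± 0.42; 95% interval −1.15 to 0.50; adjusted p = 0.893, edgeR). In foregut the copies with a perfect site were at 7.35 and 4.01 RPM in the controls and at 1.54 and 0 RPM with the sgRNA (−2.70 ± 1.13, adjusted p = 0.998, edgeR). Without the chromosome 22 provirus, described below, the endoderm groups overlapped, at 1.02, 1.44 and 1.16 RPM against 0.240, 1.07 and 0.863 RPM, and the foregut groups did not, at 2.18 and 2.75 RPM against 0.408 and 0 RPM. Those with 3 or more mismatches were at 5.05 and 4.04 RPM and at 3.39 and 2.40 RPM, which did not overlap either (−0.60 ± 0.98, adjusted p = 0.998, edgeR). Copies with 1 or 2 mismatches were too little read for a comparison under the sgRNA, with at most 0.996 RPM in any endoderm or foregut library. They fell from hESC to control endoderm (−2.11 ± 0.72, adjusted p = 0.0227, edgeR). Their reads were 22 and 11 in hESC (0.711 ± 0.316 RPM) and 9, 0 and 0 in control endoderm. The chromosome 16 copy described below held 10 and 11 of these hESC reads. Copies with a perfect site rose (2.42 ± 0.43, adjusted p = 5.43e-07, edgeR), as did those with 3 or more mismatches (1.35 ± 0.48, adjusted p = 0.0291, edgeR). Both classes counted a record of the chromosome 22 provirus.

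**Figure D1:**
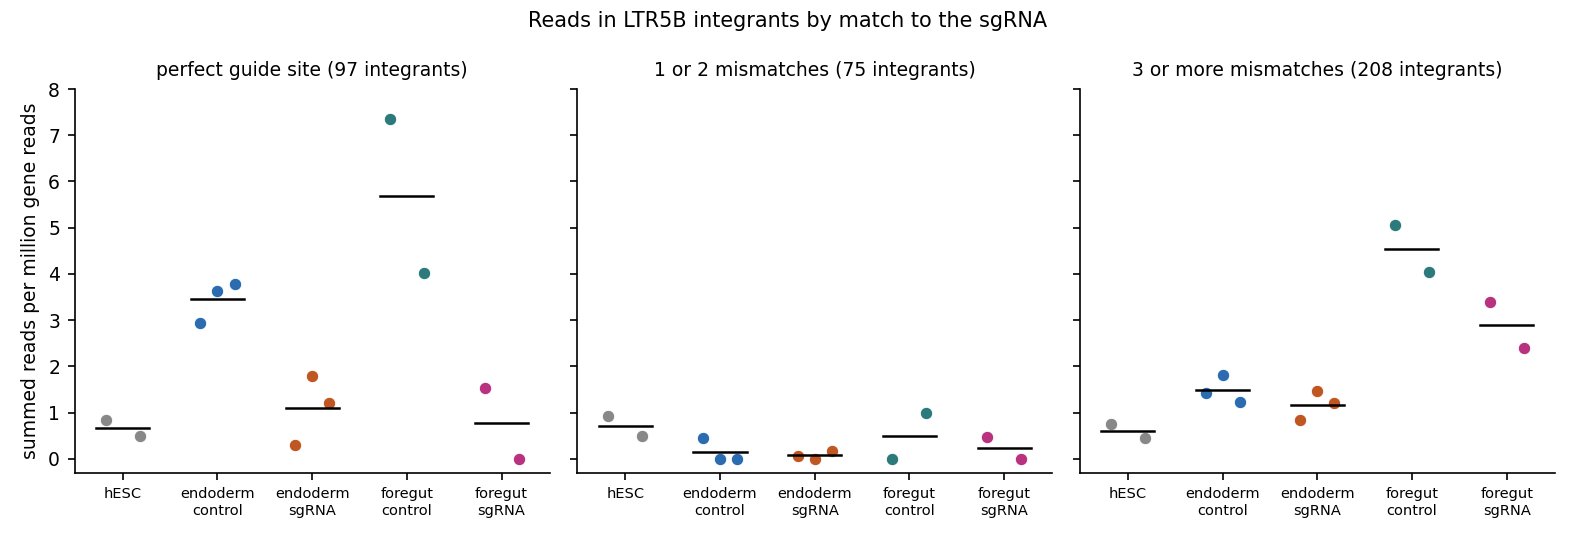
Summed LTR5B level (y axis, reads per 1000000 gene reads) by group of libraries (x axis) for integrants with a perfect guide site (97), with 1 or 2 mismatches (75) and with 3 or more (208), each dot a library and each bar the group mean. With a perfect site every sgRNA library lies below every control library of its tissue, in endoderm only with the chromosome 22 provirus counted (1.07 against 1.02 RPM without it); with 3 or more mismatches the endoderm groups overlap and the foregut groups do not (5.05 and 4.04 against 3.39 and 2.40 RPM).

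The difference between the guide classes was tested within libraries, as the log2 ratio of reads in copies with a perfect site to reads in all other copies, with 1 read added to each. In endoderm this ratio was 1.07 ± 0.48 (SD, n = 3) in the controls and −0.44 ± 0.87 (n = 3) with the sgRNA, a difference of −1.51 (two-sided exact permutation test, p = 0.1, the smallest this design allows). In foregut it was 0.11 ± 0.61 and −3.49 ± 3.08 (n = 2 each), a difference of −3.60 (exact permutation test, p = 0.333, again the smallest possible). The foregut value rested on replicate 2 of the sgRNA group, which had 0 of its 50 reads in copies with a perfect site, and the difference was −1.42 without it. Without the chromosome 22 provirus the differences were −0.94 in endoderm (exact permutation test, p = 0.2) and −3.34 in foregut (p = 0.333).

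The integrant with most reads was the chromosome 22 provirus, chr22:23879927-23888195, an LTR with HERVK-int and a perfect site that overlaps the long noncoding RNA PCAT14, which was not in the gene tables. It had 14 and 10 reads in hESC, 38, 47 and 43 in control endoderm, 1, 14 and 4 in sgRNA endoderm, 169 and 47 in control foregut, and 36 and 0 in sgRNA foregut. Control endoderm was above hESC and above sgRNA endoderm in every library. It rose from hESC to endoderm by 2.17 ± 0.58 on the log2 scale (adjusted p = 0.00654, edgeR), a call that was lost without replicate 2 of hESC (1.91, adjusted p = 0.120, edgeR). It was the only LTR5B integrant called with the sgRNA in endoderm, as lower (−2.54 ± 0.57, adjusted p = 0.0278, edgeR), where 14 LTR5B integrants were tested and 0.0285% of 24559 integrants of all families passed. At an unadjusted p under 0.05 without a limit on fold, 2 of the 14 passed, where 3.21% of all integrants did. The sgRNA call was lost without replicate 2 or 3 of the controls (adjusted p = 0.175 and 0.445, edgeR) and without replicate 1 or 3 of the sgRNA group (0.137 and 0.184). In foregut the levels were 3.22 ± 2.77 and 0.565 ± 0.799 RPM (n = 2 each; −2.35 ± 1.86, adjusted p = 0.661, edgeR). The second record of the same provirus, chr22:23888493-23889087, which has no guide site, had 1 and 1 reads in hESC, 10, 17 and 7 in control endoderm, 0, 9 and 0 in sgRNA endoderm, 8 and 9 in control foregut, and 17 and 0 in sgRNA foregut. It too rose from hESC to endoderm (3.63 ± 1.07, adjusted p = 0.0210, edgeR), a call that was lost without replicate 1 or 2 of hESC (adjusted p = 0.107 and 0.139), without replicate 2 of control endoderm (0.182), without a filter on low counts (0.104) and with a replicate block (0.124). Both records together made up 50.5 to 61.0% of LTR5B reads in control endoderm and 5 to 35.9% in sgRNA endoderm.

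The copy chr9:139690985-139691882 lies inside CCDC183, a gene of a coiled-coil protein, and has a perfect site. It had 1 and 0 reads in hESC, 18, 20 and 8 in control endoderm, 0, 14 and 2 in sgRNA endoderm, 16 and 75 in control foregut, and none in sgRNA foregut. It rose from hESC to endoderm (log2 fold change 4.88 ± 1.10, adjusted p = 0.000513, edgeR), the third and last such call among 13 LTR5B integrants tested, where 4.17% of 32490 integrants passed and 2.91% were higher. At an unadjusted p under 0.05 without a limit on fold, 4 passed, against 11.6% of all integrants. With the sgRNA in endoderm the groups overlapped (−1.32 ± 0.69, adjusted p = 0.639, edgeR). In foregut it was at 0.490 and 2.02 RPM in the controls and at 0 in both sgRNA libraries, and edgeR made no call (adjusted p = 0.661). In foregut edgeR called 0 of 12 LTR5B integrants, where 0.00777% of 51499 integrants passed. At an unadjusted p under 0.05 it was 0 as well, against 0.476% of all integrants. DESeq2 called 0 and limma-voom 1, this copy (adjusted p = 0.0236).

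The copy chr19:53447835-53448814, inside the read-through gene ZNF816-ZNF321P and without a guide site, was the second most read. It had 6 and 1 reads in hESC, 6, 11 and 6 in control endoderm, 3, 8 and 7 in sgRNA endoderm, 125 and 84 in control foregut, and 39 and 11 in sgRNA foregut. Control foregut was above every other library. Its rise from control endoderm to control foregut was the single call among 15 LTR5B integrants (log2 fold change 2.96 ± 0.76, adjusted p = 0.00294, edgeR), with 5.58% of 46118 integrants called and 3.82% higher. At an unadjusted p under 0.05 without a limit on fold, 3 passed, against 11.9% of all integrants. Leaving out control endoderm replicate 1, 2 or 3 lost the call (adjusted p = 0.0654, 0.0597 and 0.0952, edgeR). In endoderm the sgRNA left it at 0.397 ± 0.212 RPM against 0.394 ± 0.106 RPM (n = 3 each; −0.02 ± 0.74, edgeR). In foregut it was at 0.877 ± 0.492 RPM against 3.05 ± 1.11 RPM (n = 2 each; −1.71 ± 1.80, adjusted p = 0.661, edgeR).

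The copy chr5:1567507-1568461, which lies 43430 bp from LPCAT1 and has no guide site, was read at similar counts in both foregut groups. It had 0 to 5 reads in each hESC and endoderm library, 30 and 41 in control foregut, and 34 and 39 in sgRNA foregut. Against control endoderm the foregut value did not pass (2.53 ± 1.24, adjusted p = 0.373, edgeR). The copy chr20:32839918-32840901, inside ASIP, the gene of agouti signalling protein, has a perfect site and had 19 and 16 reads in control foregut, 13 and 0 in sgRNA foregut, and at most 3 elsewhere. The copy chr16:29751562-29752546, 1238 bp from C16orf54 and with the substitution A5C, was read in hESC instead, with 10 and 11 reads there, 2 in replicate 1 of control endoderm and none in the remaining libraries (endoderm against hESC −3.44 ± 1.19, adjusted p = 0.0800, edgeR). The copy chr19:9894742-9895741, inside ZNF846, had 1 to 6 reads in every hESC and endoderm library and none in foregut. The provirus chr20:32721509-32724384 (with HERVK-int, 21460 bp from EIF2S2, best site with 4 mismatches) had 0 to 3 reads in each hESC and endoderm library, 0 and 16 in control foregut, and 17 and 0 in sgRNA foregut. Of the copies left out for their exon overlap, the one with the highest level, chr7:72421753-72422735 in the nucleoporin gene POM121, had 0 to 9 reads in each library, and 4.60% of its 50-base words were unique.

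Several copies were read in a single foregut library. The provirus chr6:42861409-42868111 (A5G, with HERVK-int) had 36 reads in replicate 2 of control foregut and none in any other library. The copy chr19:52461035-52462029, with a perfect site and 5564 bp from ZNF350, had 20 reads in replicate 1 of control foregut alone. The copy chr19:53864273-53868044 (T8C and G9A, 902 bp from ZNF525) had 15 reads in replicate 1 of sgRNA foregut and 3 in replicate 1 of control endoderm. Such values show how far replicates of a group differed for single copies. The copy inside ZNF611, chr19:53226814-53227799, with a perfect site, had no read in any of the 12 libraries.

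**Figure D2:**
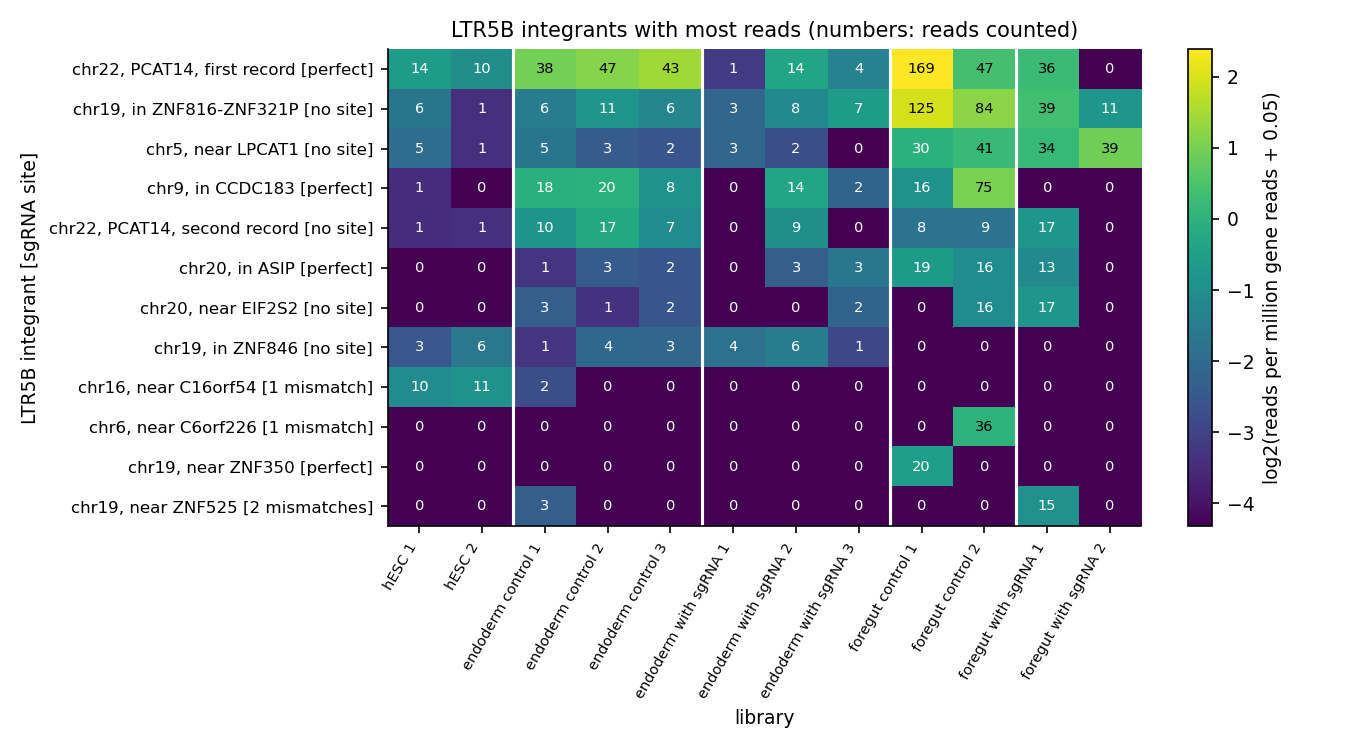
Reads of 12 LTR5B integrants (rows) in the 12 libraries (columns); the printed numbers are reads and the colour is log2 of the level in reads per 1000000 gene reads plus 0.05. The chromosome 22 provirus has its highest endoderm counts in the 3 control libraries (38 to 47 reads), and the copy inside ZNF816-ZNF321P its highest counts in control foregut (125 and 84 reads).

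LTR5B reads on chromosome 19 came from 72 integrants without exon overlap and those elsewhere from 315. Chromosome 19 copies were at 0.552 and 0.399 RPM in hESC, 0.559, 0.697 and 0.672 RPM in control endoderm, 0.420, 0.815 and 0.950 RPM in sgRNA endoderm, 4.44 and 2.56 RPM in control foregut, and 1.70 and 0.529 RPM in sgRNA foregut. Only control foregut stood clear of the other groups. Copies elsewhere were at 2.00 and 1.02 RPM in hESC, 4.27, 4.74 and 4.34 RPM in control endoderm, 0.780, 2.44 and 1.64 RPM in sgRNA endoderm, 7.97 and 6.49 RPM in control foregut, and 3.70 and 1.87 RPM in sgRNA foregut. The sgRNA endoderm libraries lay below the controls here, and on chromosome 19 the groups overlapped. Without the chromosome 22 provirus they also overlapped on the other chromosomes, at 1.83, 1.76 and 1.28 RPM against 0.720, 1.27 and 1.29 RPM. The fits gave −1.44 ± 0.39 (adjusted p = 0.129, edgeR) for the other chromosomes and 0.17 ± 0.53 (adjusted p = 0.955, edgeR) for chromosome 19.

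The share of LTR5B reads on chromosome 19 was 21.7 and 28.1% in hESC, 11.6, 12.8 and 13.4% in control endoderm, 35, 25 and 36.7% in sgRNA endoderm, 35.8 and 28.3% in control foregut, and 31.4 and 22% in sgRNA foregut. The control endoderm libraries were the lowest. The other groups overlapped one another, except that control foregut lay just above hESC (lowest 28.3% against highest 28.1%). On the log2 scale the ratio of chromosome 19 to other reads was −2.70 ± 0.12 (SD, n = 3) in control endoderm and −1.02 ± 0.44 (n = 3) in sgRNA endoderm, a difference of 1.67 (two-sided exact permutation test, p = 0.1, the smallest possible). It differed by 0.69 without the chromosome 22 provirus. In hESC the ratio was −1.52 ± 0.36 (n = 2; endoderm minus hESC −1.18, exact permutation p = 0.1, the smallest possible), and without the provirus the difference was −0.45 (exact permutation p = 0.4). It was −1.09 ± 0.35 in control foregut (n = 2; higher than control endoderm by 1.61, exact permutation p = 0.1, the smallest possible), and that difference turned to −0.06 without the copy inside ZNF816-ZNF321P (p = 0.8). With the sgRNA in foregut it was −1.43 ± 0.44 (n = 2; difference −0.34, exact permutation p = 0.667, with 0.333 the smallest possible). From control endoderm to control foregut the chromosome 19 sum rose (log2 fold change 2.46 ± 0.50, adjusted p = 0.00413, edgeR), and the sum elsewhere did not pass (0.72 ± 0.35, adjusted p = 0.155, edgeR). The copy inside ZNF816-ZNF321P held 125 of 145 and 84 of 95 of the chromosome 19 reads in control foregut, and without it the levels were 0.254, 0.186 and 0.305 RPM in control endoderm and 0.613 and 0.296 RPM in control foregut, which overlapped.

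**Figure D3:**
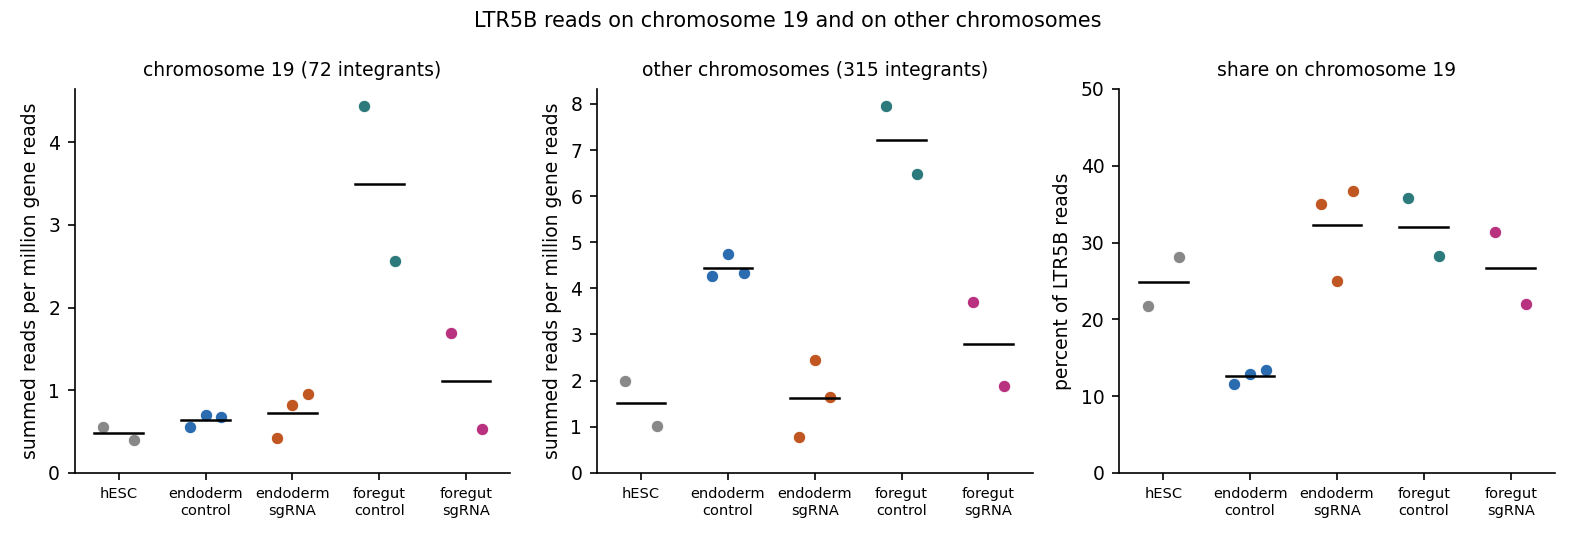
LTR5B level (y axis, reads per 1000000 gene reads) by group of libraries (x axis) on chromosome 19 (72 integrants) and on other chromosomes (315), and the percent of LTR5B reads on chromosome 19, each dot a library and each bar the group mean. The share on chromosome 19 is lowest in the 3 control endoderm libraries, 11.6 to 13.4%.

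The wider effect of the sgRNA was read from protein-coding genes whose start lay within 50 kb of an LTR5B integrant. In endoderm 380 such genes were tested, with a median log2 fold change of −0.08 against −0.04 over all 15030 genes. At an adjusted p under 0.05 only SERPINB9 changed, where 0.0466% of all genes passed. At an unadjusted p under 0.05, 3 were higher and 30 lower (8.68%, against 5.01% of all genes). Over all genes 287 were higher and 466 lower, the latter 3.1% of them. The share of lower genes was larger near copies with a perfect site: of 115 genes near these, 0 were higher and 19 lower (16.5%; median −0.22), and of the 265 near other copies only, 3 were higher and 11 lower (5.28%; median −0.03). Within 10 kb of a copy with a perfect site 8 of 18 genes were lower (median −0.71), and at 10 to 50 kb 11 of 97 (11.3%). Near copies whose best site had 1 mismatch 6 of 89 were lower (median −0.08), and near copies with 2 or more mismatches only, 5 of 176 were lower and 3 higher (median −0.01). Within 10 kb of any copy, with no perfect site within 50 kb, 6 of 62 were lower (9.68%; median −0.09).

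In foregut 394 genes near LTR5B were tested, with a median log2 fold change of −0.15 against −0.04 over 15163 genes. Here 4 fell and 0 rose at an adjusted p under 0.05, TMEM141, DPP7, PRDX6 and ITLN2, where 0.191% of all genes passed. At an unadjusted p under 0.05, 1 was higher and 33 lower (8.63%, against 3.88%). Over all genes 234 were higher and 355 lower, the latter 2.34% of them. Near copies with a perfect site 0 of 121 were higher and 19 lower (15.7%; median −0.35), and near other copies only, 1 of 273 was higher and 14 lower (5.49%; median −0.08). Within 10 kb of a perfect site 10 of 18 were lower (median −1.61), and at 10 to 50 kb 9 of 103 (8.74%). Near copies whose best site had 1 mismatch 10 of 91 were lower (11.0%; median −0.13). Near copies with 2 or more mismatches only, 4 of 182 were lower and 1 higher (median −0.06). Within 10 kb of any copy, with no perfect site within 50 kb, 6 of 65 were lower (9.23%; median −0.16). These sgRNA and control libraries are not shared with the endoderm comparison. Of the 109 genes near a perfect site tested in both tissues, 17 were lower in endoderm and 19 in foregut, and 9 were in both lists, 52.9% of the former and 47.4% of the latter: DPP7, FAAH, SERPINB9, TMEM141, ZNF611, ZNF613, ZNF69, ZNF761 and ZNF813. Over all 14252 genes tested in both tissues 445 and 340 were lower and 41 were in both lists (9.21% and 12.1%).

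**Figure D4:**
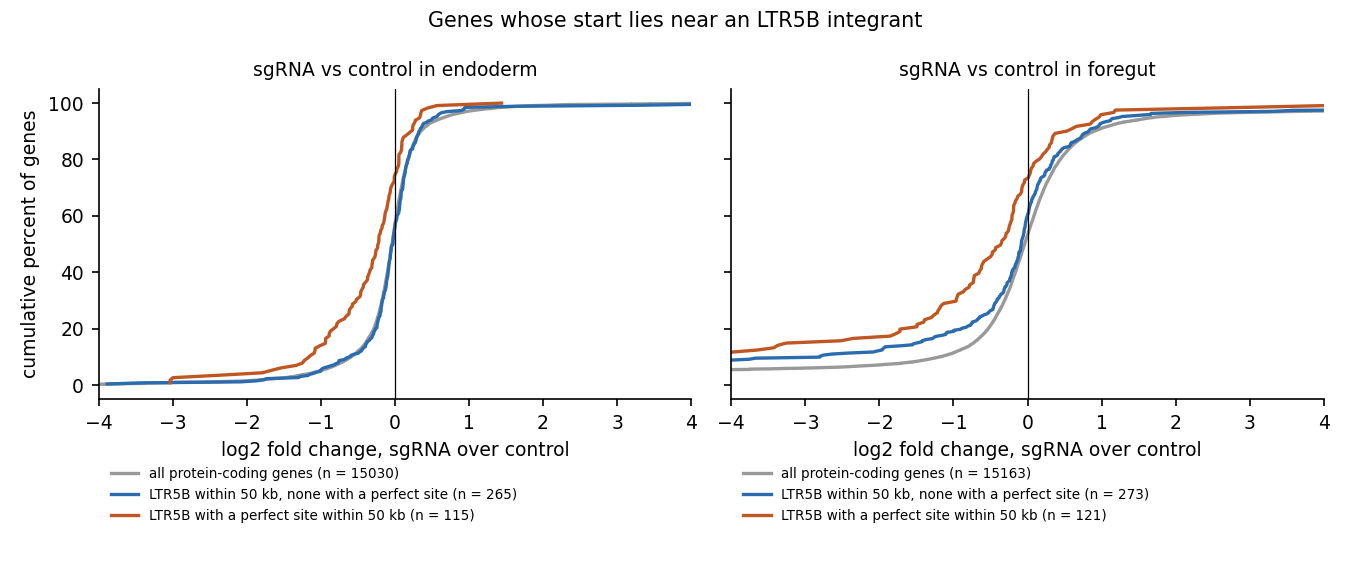
Cumulative percent of protein-coding genes (y axis) by log2 fold change of sgRNA over control (x axis) in endoderm and foregut, for all genes (15030 and 15163), genes within 50 kb of LTR5B copies without a perfect site (265 and 273) and genes within 50 kb of a copy with one (115 and 121). The line for a perfect site lies left of the others in both tissues, with medians of −0.22 and −0.35.

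LTR5_Hs copies carry the same guide site, so genes were also sorted by these. Without the genes that had an LTR5_Hs copy with 0 or 1 mismatch within 50 kb, 16 of 104 genes near an LTR5B copy with a perfect site were lower in endoderm (15.4%; median −0.22) and 16 of 109 in foregut (median −0.31). Within 10 kb 7 of 15 were lower in endoderm and 8 of 15 in foregut. Near LTR5_Hs copies with a perfect site and no LTR5B copy, 12 of 57 genes were lower in endoderm (21.1%) and 9 of 59 in foregut (15.3%).

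SERPINB9, an inhibitor of the protease granzyme B, starts 22556 bp from the nearest copy with a perfect site (chr6:2926099-2926938). It was at 1.15 and 1.99 RPM in hESC, 250, 211 and 143 RPM in control endoderm, 35.8, 84 and 54 RPM in sgRNA endoderm, 37.9 and 15.2 RPM in control foregut, and 14 and 15.2 RPM in sgRNA foregut. The endoderm groups did not overlap (−1.79 ± 0.26, adjusted p = 0.0373, edgeR), but the call was lost in 4 of 6 fits that left out a library: replicate 1 or 2 of the controls, or replicate 1 or 3 of the sgRNA group. In foregut the lowest control and the highest sgRNA value were both 15.2 RPM (−0.87, adjusted p = 1, edgeR). DPP7, a dipeptidyl peptidase, starts 1080 bp from the copy it contains. It was at 2.68 and 2.93 RPM in hESC, 12.4, 7.48 and 7.02 RPM in control endoderm, 2.34, 3.06 and 2.94 RPM in sgRNA endoderm, 36.8 and 98.2 RPM in control foregut, and 7 and 4.71 RPM in sgRNA foregut. The sgRNA libraries lay below the controls in both tissues (endoderm −1.67 ± 0.28, adjusted p = 0.118; foregut −3.42 ± 0.42, adjusted p = 1.06e-12, edgeR). The copy itself had 4 reads in all libraries.

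TMEM141, which starts 1568 bp from a perfect-site copy with HERVK-int (chr9:139680615-139684228), showed the largest change in foregut among genes near LTR5B that passed. It was at 20.8, 28.0 and 26.3 RPM in control endoderm, 11.8, 14.2 and 10.6 RPM in sgRNA endoderm, 33.9 and 61.5 RPM in control foregut, and 1.95 and 0.721 RPM in sgRNA foregut. The groups did not overlap in either tissue (endoderm −1.01 ± 0.21, adjusted p = 0.214; foregut −5.01 ± 0.50, adjusted p = 6.47e-20, edgeR). The copy had no read in any library. PRDX6, a peroxiredoxin that reduces oxidised phospholipids, starts 1922 bp from a perfect-site copy without reads (chr1:173443564-173444547). It was at 631 and 661 RPM in control foregut and 219 and 343 RPM in sgRNA foregut (−1.21 ± 0.30, adjusted p = 0.0314, edgeR), and at 312 to 352 RPM in control and 288 to 290 RPM in sgRNA endoderm (−0.19 ± 0.17, adjusted p = 0.999, edgeR). PRDX6 was not called without either control or without replicate 1 or 2 of the sgRNA group, whereas DPP7 and TMEM141 were called in all 4 of these fits. Without replicate 1 of sgRNA foregut, which leaves that group with replicate 2 alone, 22 of 384 genes near LTR5B were called (5.73%), 21 of them lower, where 2.85% of all 14868 genes passed, 88 higher and 335 lower.

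ITLN2, an intelectin that binds microbial carbohydrates, contains a copy with A12G (chr1:160916694-160917688), and an LTR5_Hs copy with a perfect site lies 5018 bp from its start. It was at 16.7 and 16 RPM in control foregut and 2.20 and 0 RPM in sgRNA foregut (−3.68 ± 0.64, adjusted p = 9.35e-06, edgeR). In endoderm it was at 2.69, 5.57 and 5.37 RPM and at 1.26, 2.24 and 2.07 RPM, which did not overlap (−1.28, adjusted p = 0.444, edgeR). It was not called without replicate 1 of control foregut. CCDC183, which starts 195 bp from the chromosome 9 copy described above, rose from hESC to endoderm (0.0425 and 0.0887 RPM against 0.915, 0.697 and 0.550 RPM; log2 fold change 3.43, adjusted p = 0.00316, edgeR). It was at 0 RPM in all 4 foregut libraries, where the copy had 16 and 75 reads in the controls. With the sgRNA it was at 0.240, 0.458 and 0.0863 RPM (−1.33 ± 0.61, adjusted p = 0.959, edgeR).

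Of the other genes within 10 kb of a perfect site, FAAH, which hydrolyses fatty acid amides such as anandamide, was lower in both tissues at an unadjusted p (endoderm −0.94 ± 0.39, adjusted p = 0.894; foregut −2.36 ± 0.92, adjusted p = 0.982, edgeR). FAM111A, a protease that restricts some viruses, had −1.54 ± 0.68 in endoderm (adjusted p = 0.935) and −0.48 ± 1.04 in foregut (adjusted p = 1.0, edgeR). SLC3A2, the heavy chain of several amino acid transporters, had −0.30 ± 0.17 in endoderm (adjusted p = 0.992, edgeR) and −0.72 ± 0.34 in foregut. CPSF4, a subunit of the complex that cleaves messenger RNA at its 3′ end, had 0.09 ± 0.18 in endoderm (adjusted p = 0.999, edgeR) and −0.79 ± 0.38 in foregut (adjusted p = 1.0 for both genes in foregut, edgeR). In endoderm and foregut ZNF131 had −0.17 ± 0.19 and 0.02 ± 0.53, and ZNF793 −0.03 ± 0.31 and 0.60 ± 1.84. PAPSS1, which makes the donor of sulphate groups, had −0.14 ± 0.17 in endoderm and −0.09 ± 0.33 in foregut (adjusted p = 0.999 and 1.0, edgeR).

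The zinc finger genes of chromosome 19 were grouped by the nearest copy. Of 32 within 50 kb of a perfect site 11 were lower in endoderm at an unadjusted p under 0.05 and 0 higher (median −0.50), and of 33 in foregut 9 were lower (median −1.13). Of 24 near other LTR5B copies only, 5 and 3 were lower. Of 171 on this chromosome with no LTR5B copy within 50 kb, 5 were lower and 2 higher in endoderm (median −0.11), and of 170 in foregut 5 were lower and 1 higher (median −0.22). None of those near an LTR5B copy passed an adjusted p under 0.05 in either tissue. ZNF610 contains a copy with G9A (chr19:52842033-52842985) without reads, 2537 bp from its start. It was at 9.15, 7.34 and 6.84 RPM in control endoderm and 0.840, 2.75 and 2.85 RPM in sgRNA endoderm, which did not overlap (−1.86, adjusted p = 0.199, edgeR), and at 10.7 and 5.79 RPM in control and 0 and 2.69 RPM in sgRNA foregut. ZNF614 was at 36.9, 28.3 and 25.7 RPM and at 9.30, 14.1 and 17.4 RPM in endoderm (−1.14, adjusted p = 0.199, edgeR), and ZNF649 at 38.7, 41.5 and 36.1 RPM and at 19.9, 23.6 and 18.3 RPM (−0.89, adjusted p = 0.199, edgeR), with an LTR5_Hs copy of 1 mismatch 652 bp from the start of ZNF649. ZNF611, 6170 bp from a copy with a perfect site, was at 16.2, 11.6 and 11.7 RPM and at 1.92, 6.93 and 8.72 RPM in endoderm (−1.18 ± 0.38, adjusted p = 0.613, edgeR), and at 0 in both sgRNA foregut libraries against 1.75 and 0.969 RPM.

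**Figure D5:**
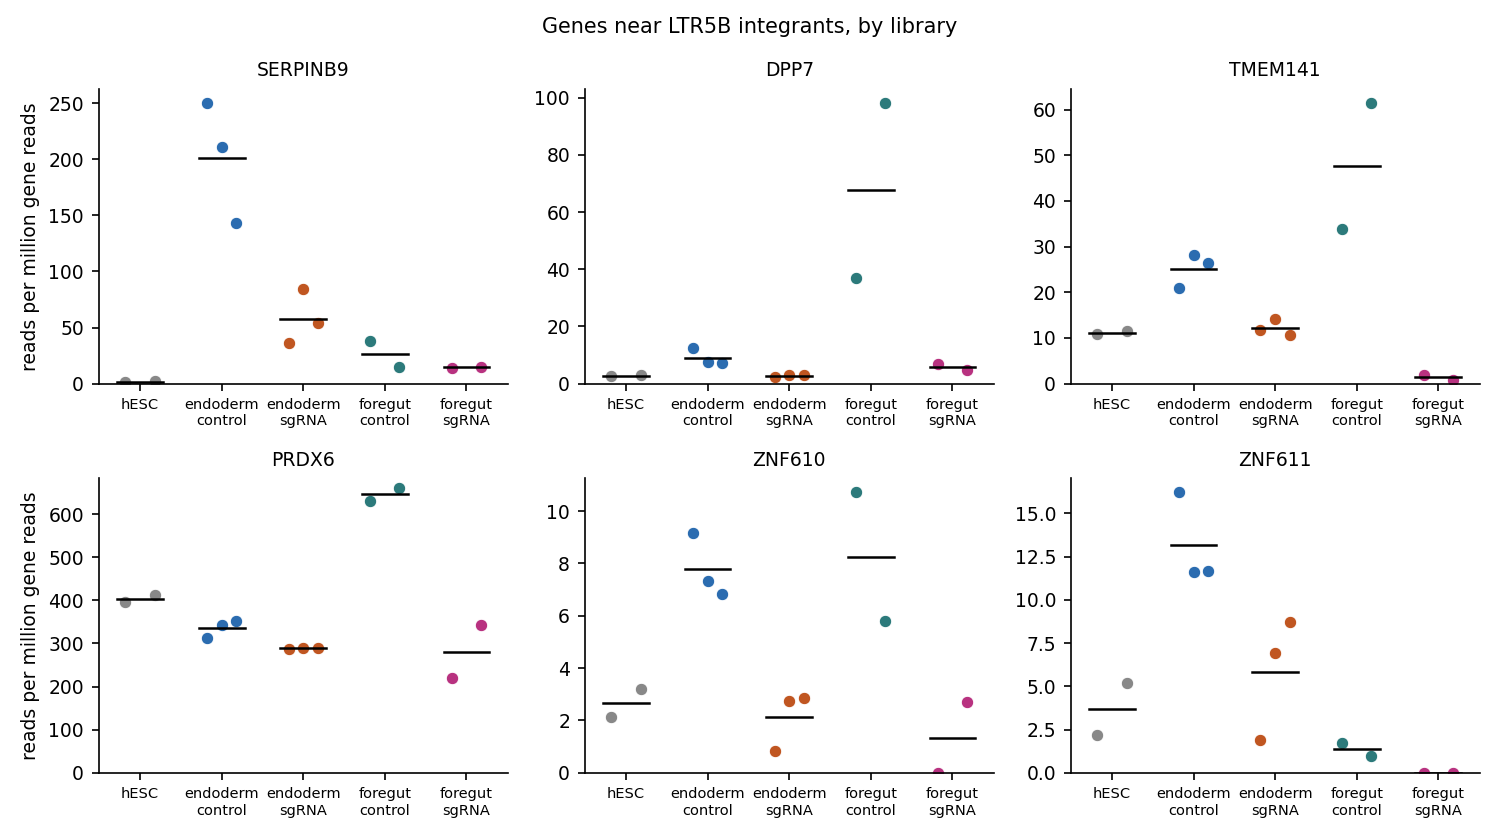
Level in reads per 1000000 gene reads (y axis) of 6 genes near LTR5B copies by group of libraries (x axis), each dot a library and each bar the group mean. DPP7 and TMEM141 lie below the control libraries in both tissues with the sgRNA, with foregut values of 4.71 to 7 and 0.721 to 1.95.

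From hESC to control endoderm, 384 genes near LTR5B had a median log2 fold change of 0.23 against −0.00 over all genes, with 108 higher and 55 lower (42.4%, against 44.8% of 15277 genes). From control endoderm to control foregut 84 of 400 were higher and 81 lower (41.3%, against 40.4% of 15624 genes). Over all genes 3396 were higher and 3452 lower in endoderm than in hESC, and 2993 higher and 3322 lower in foregut than in endoderm. The median from endoderm to foregut was 0.07 for genes near LTR5B and −0.35 for the 124 near a copy with a perfect site, against −0.08 over all genes. The endoderm factors GATA6 and SOX17 lay 4404790 bp and 15865000 bp from the nearest LTR5B copy. GATA6 was at 0 RPM in hESC, 440, 327 and 330 RPM in control endoderm, and 305, 413 and 470 RPM in sgRNA endoderm. SOX17 was at 0 RPM in hESC, 290, 209 and 225 RPM, and 134, 302 and 345 RPM, so that the control and sgRNA libraries overlapped for both factors.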

How the data were processed

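RNA-seq libraries (polyA-selected, stranded TruSeq) of 12 bulk samples were used; the authors aligned reads to hg19 with HISAT2, kept unique alignments with a mapping quality over 10 and counted genes and merged Repbase fragments of TEs with featureCounts. The deposited values are whole-number counts per gene and per integrant, and whether counting used the strand is not given in the sources used here. The gastruloid samples were not used here. Levels are reads per 1000000 reads in genes (RPM), without further scaling. The main fits used the gene reads as library sizes, with library factors from the genes (TMM). Integrants that overlap an exon (GENCODE v44lift37) of a counted gene were left out. Only the groups compared entered a fit, and rows needed at least 3 reads in a library. The main test was edgeR 4.0.16's quasi-likelihood test (R 4.3.3), with Benjamini-Hochberg adjustment over all rows of a fit. Integrants were called at an adjusted p under 0.05 and over 2-fold change, sums and genes at an adjusted p under 0.05. Ratios were compared by two-sided exact permutation tests over every regrouping of the libraries. Alternatives were limma-voom 3.58.1, DESeq2 1.42.0, other filters, scalings and windows, a replicate block, and leaving out each library. Leaving out the chromosome 22 provirus, the copy with most reads or integrants in exons of any annotated gene was chosen after seeing the data. Guide sites were searched in GRCh37 on both strands, from the guide given in the study's methods. On simulated data with 200 changed integrants, 49, 75, 4 and 49% of 4-fold changes were recovered for endoderm against hESC (15953 rows), the sgRNA in endoderm (12461), the sgRNA in foregut (45748) and foregut against endoderm (35529), and 6, 11, 0 and 2% of 2-fold changes. The changed integrants were drawn from those expected to hold at least 10 reads in an average library, with the same dispersion for all. Recovery for LTR5B integrants, most of which had fewer reads, was not tested. Named integrants were the 10 without exon overlap with the highest mean of group means, the 5 highest on chromosome 19, those called, the copy in ZNF611 that the study cloned in a reporter and the highest one with exon overlap; genes were those nearest to these, GATA6, SOX17 and the 5 near LTR5B with the smallest p for the sgRNA in endoderm. TMEM141, PRDX6, ITLN2, CCDC183, ZNF611 and the other genes within 10 kb were added after their values were seen. The sequences of the copies and 1 integrant that this rule names are not reported here. Of 63677 gene IDs 55665 were placed by the annotation. Members and lists were chosen with earlier results of these data known.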

Additional observations from a re-analysis of the deposited data

How the results depend on the processing

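Of the values that answer a comparison, 192 under an alternative kept their direction and side of the threshold or moved little, 22 moved, 10 lost their call and 3 changed sign. The LTR5B sum of endoderm against hESC (log2 fold change 1.41) lost its call with the rows named LTR5B alone (0.60), with all 5 groups in a fit (1.38, adjusted p = 0.221, edgeR), without integrants in exons of any annotated gene (0.67) and without the chromosome 22 provirus (0.72), and ranged from 0.99 to 1.98 as libraries were left out. That of foregut against endoderm lost it with all 5 groups in a fit (1.10, adjusted p = 0.132, edgeR), and ranged from 0.74 to 1.44. The sum under the sgRNA ranged from −1.37 to −0.82 in endoderm and from −2.31 to −0.81 in foregut, and the foregut minus endoderm effect from −1.18 to 0.28, with 0.11 without replicate 1 of control foregut and 0.28 without replicate 2 of sgRNA foregut. The cause of these changes was not tested.

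The number of LTR5B integrants called for endoderm against hESC (3) was 1 without exons of any annotated gene and 1 to 4 as libraries were left out. For the sgRNA in endoderm (1) it was 2 at an unadjusted p under 0.05, 0 without exons of any annotated gene and 0 to 1, in foregut (0) it was 1 with limma-voom and 0 to 0, and for foregut against endoderm (1) it was 3 unadjusted, 2 with DESeq2, 0 without a filter and 0 to 3. The copy inside ZNF816-ZNF321P changed sign for the sgRNA in endoderm, a difference near 0, in 3 fits without a library (0.21, 0.30 and 0.00231, in a range of −0.38 to 0.30). The guide class ratio ranged from −1.86 to −1.03 in endoderm and from −5.78 to −1.42 in foregut. The chromosome 19 ratio ranged from −1.44 to −0.92, 1.53 to 1.93, −0.65 to −0.03 and 1.36 to 1.86 for endoderm, the sgRNA in endoderm and in foregut, and foregut, and the last was −0.0601 without the chromosome 19 copy with most reads. The median over genes near LTR5B was 0.15 at 100 kb for endoderm, and ranged from 0.17 to 0.27 for endoderm, −0.11 to −0.03 and −0.40 to −0.0339 for the sgRNA, and −0.0909 to 0.10 for foregut.

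Replicate numbers did not pair the samples: correlations of same-numbered samples were −0.083 to 0.089. With a replicate block the sums were 1.45, −1.18, −1.52 and 1.07 for endoderm, the sgRNA in endoderm and in foregut, and foregut (adjusted p = 0.000836, 0.405, 0.167 and 0.0424, edgeR), and 2, 1, 0 and 0 integrants were called. No read was seen in 339 of the 387 copies.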
